A study of Mus musculus with 9 samples.

Results

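The retinoid X receptors (RXRs) and retinoic acid receptors (RARs) were followed in mouse spinal cord through the probe sets whose annotated gene symbol was Rxra, Rxrb, Rxrg, Rara, Rarb or Rarg. The rule found 5 of the 8252 genes with a probe set of their own, measured by 6 of the 12488 probe sets on the array: 2 for Rxra and 1 each for Rxrb, Rxrg, Rara and Rarg. No probe set used here was annotated to Rarb, so its transcript is not analysed here. All 6 probe sets passed the filter on dim signals and were tested.

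The arrays were made from total RNA of spinal cord from B10.PL mice, 1 array per sample and 3 per group. The first group had experimental autoimmune encephalomyelitis (EAE), in which an immune attack on myelin inflames the cord, a model of multiple sclerosis. It received calcitriol at 200 ng, this being the active hormone made from vitamin D, and was sampled 6 h later (replicates 6, 7 and 8). The second had EAE, was given placebo and was sampled after the same 6 h (replicates 1, 5 and 10). The third was naive (replicates 2, 3 and 4), and the labels name neither a placebo nor a time for it, so EAE and the placebo treatment cannot be told apart in comparisons with it. Age, sex, immunisation and disease score are not given in the sources used here, nor whether samples of a group were separate animals, so the p-values speak only of the spread between these samples, part of which could be technical. For calcitriol replicate 6, D2 hormone stands in the title and D3 hormone in the description.

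RXRs and RARs are nuclear receptors, transcription factors switched by small lipophilic ligands. RARs bind all-trans retinoic acid and act as dimers with an RXR, and RXRs are also the obligate partners of the vitamin D receptor (VDR), the thyroid hormone receptors, the PPARs and the liver X receptors, so calcitriol signals through a dimer that contains an RXR. The dimers recognise direct repeats (DR) of a hexamer half-site, and the number of bases between the repeats favours one dimer over another. In the central nervous system RXR gamma is known for its role in oligodendrocyte differentiation and remyelination, and RAR beta for neurite outgrowth in the cord.

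The element that an RAR-RXR dimer binds is shown here in the promoters of Rarb, a receptor gene that retinoic acid itself induces, and of Cyp26a1, the retinoic acid-degrading enzyme and a textbook target gene, whose transcript was measured on these arrays. Both are given as the 100 bases before the RefSeq start on build GRCm38.p6, read along the gene's strand, with the direct repeat spaced by 5 bases (DR5) in capitals. The Rarb stretch is chr14:16575477-16575576 on the minus strand, and the Cyp26a1 stretch is chr19:37697708-37697807 on the plus strand.
Rarb: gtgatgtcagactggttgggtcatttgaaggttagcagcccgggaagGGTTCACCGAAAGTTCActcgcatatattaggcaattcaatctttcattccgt
Cyp26a1: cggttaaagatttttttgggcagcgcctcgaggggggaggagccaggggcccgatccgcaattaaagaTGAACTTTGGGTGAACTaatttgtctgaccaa
The repeat lies 53 to 37 bases before the start in Rarb and 32 to 16 bases before it in Cyp26a1, where it is on the opposite strand and reads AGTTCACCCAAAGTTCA. The search took any of the half-sites AGGTCA or AGTTCA or GGGTCA or GGTTCA, repeated 1 to 5 bases apart on either strand, in windows of 250 bases before to 50 after each start. A DR5 was in 32 of all 32851 such windows (0.0974%), and any of the 5 spacings in 230 (0.7%). Of the 13 windows of the 6 receptor genes, 1 held a repeat, that of Rarb. These are matches of letters, and binding was not measured.

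The calcitriol arrays correlated with each other at 0.899 to 0.938 (Pearson, log2 signal over probe sets), the placebo arrays at 0.921 to 0.936 and the naive arrays at 0.765 to 0.878, where naive replicate 2 stood apart. Even the closest naive pair correlated less than any pair within an EAE group. The beta-actin 5′ minus 3′ log2 difference, a measure of how far labelling reached, was -0.83 to -0.52 with calcitriol, -1.11 to -0.42 with placebo and -0.25 to 0.12 in naive cord, so it moved with EAE in every comparison with naive cord, and its part in those results was not tested. No neuron, oligodendrocyte or astrocyte marker tested was at the floor on all arrays of any group, so markers of the labelled tissue were present. The summed signal of 13 monocyte, macrophage and microglia markers was 4720 to 7630 with calcitriol, 3936 to 5300 with placebo and 2006 to 2027 in naive cord, where Lyz2, Ctsc and Cd53 were at the floor on all 3 arrays. That of 8 neutrophil markers was 2862 to 4063 with calcitriol, 2930 to 3884 with placebo and 1453 to 1604 in naive cord, where S100a9 was at the floor on all 3 arrays. Of the 13, 11 were higher and 2 lower in placebo against naive (-0.68 to 4.17 log2). In calcitriol against naive 12 were higher and 1 lower (-1.02 to 4.94 log2). At a limma adjusted p under 0.05, 5 and 7 of the 13 passed, as higher, where 0.979% and 2.08% of all genes passed. Of the 8, 8 and 7 were higher in these comparisons, and 3 passed in each.

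Values are given as scaled signal in linear array units, after each array was brought to the same trimmed mean of 192.8 units. Differences are in log2 after signals under a floor of 19.3 units were raised to it. No receptor probe set passed the test in any of the comparisons. Calcitriol against placebo had 0 of 6 past a limma adjusted p of 0.05 (Benjamini-Hochberg over all 12177 probe sets tested), where 0% of all probe sets passed (1 of 6, and 314 or 2.58% of all, at an unadjusted p under 0.05). Placebo against naive had 0 of 6, where 0.936% of all probe sets passed, 0.887% higher and 0.0493% lower (1 of 6, and 9.33% of all, unadjusted). Calcitriol against naive had 0 of 6, where 2.00% of all probe sets passed, 1.68% higher and 0.320% lower (0 of 6, and 11.9% of all, unadjusted). The moderated F test over the 3 groups also called none of the 6, where it called 1.30% of all probe sets (1 of 6, and 9.34% of all, at an unadjusted p under 0.05), and the smallest adjusted p among the 6 was that of Rarg (limma adjusted p = 0.0848). The receptors nonetheless fell into unlike sets of measurements: the RXRs were bright and varied little, so that their intervals are narrow, Rara was dim and variable, and Rarg was dim, with its placebo arrays apart from the other 6.

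**Figure D1:**
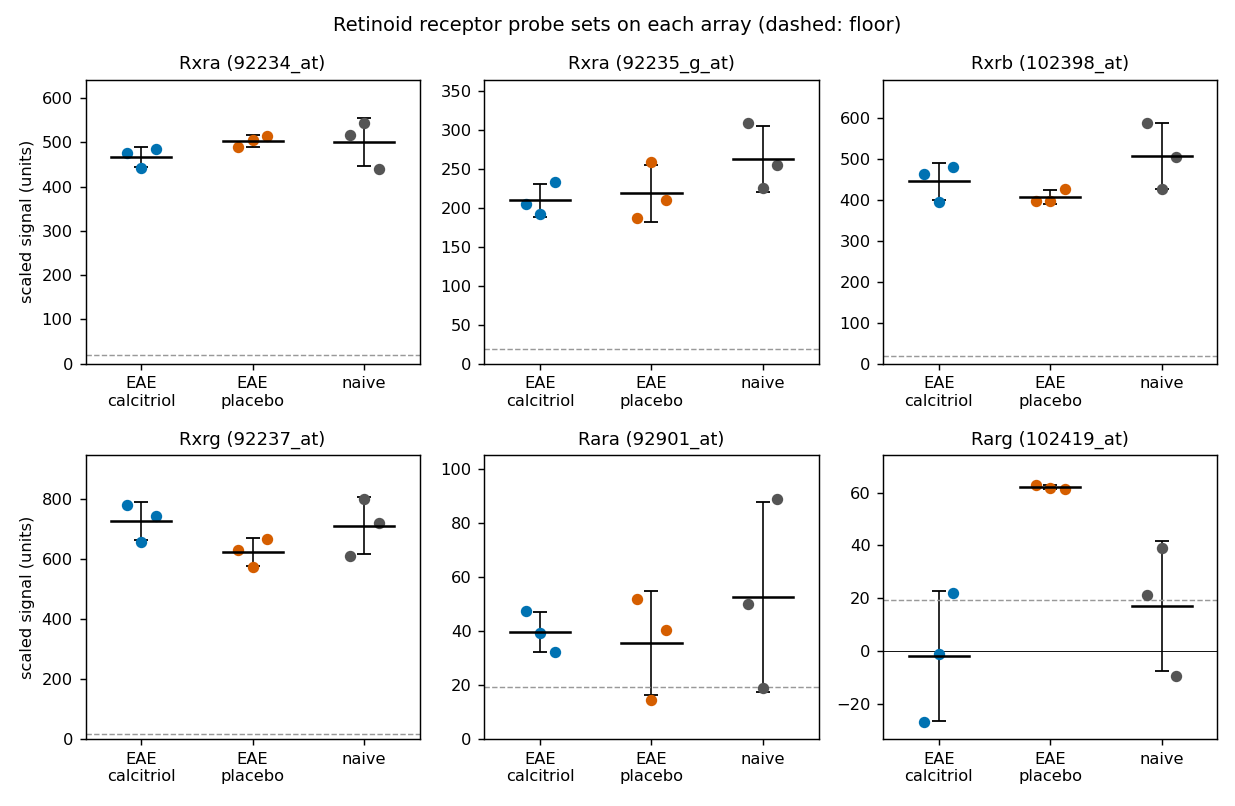
Scaled signal (vertical axes, linear, signal units) of the 6 receptor probe sets on each of 9 arrays, with EAE given calcitriol, EAE given placebo and naive cord from left to right. Points are arrays, bars the mean, whiskers 1 SD (n = 3), and the dashed line is the floor of 19.3 units; the RXR groups lie close together far above the floor, and the placebo arrays of Rarg lie above the other 6.

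The RXRs are the shared partners of the family. Rxra, which encodes the RXR widely expressed in adult tissues, had 475, 443 and 485 signal units on calcitriol arrays (replicates 6, 7 and 8) of its probe set 92234_at, against 489, 507 and 515 on placebo arrays (replicates 1, 5 and 10). In naive cord, replicates 2, 3 and 4 had 517, 544 and 439. Every calcitriol array was below every placebo array, by a narrow gap, and naive arrays spanned both groups. The difference of calcitriol against placebo was -0.11 ± 0.13 log2 (SE, n = 3 per group, limma adjusted p = 1), with a 95% interval of -23.7% to 12.7%. Groups without overlap are common by this measure, being found for 9.99% of all probe sets in that comparison (4.82% higher, 5.17% lower). Placebo against naive was 0.02 ± 0.13 log2 (SE), with an interval of -16.8% to 22.9%, and calcitriol against naive was -0.09 ± 0.13 log2 (SE), with an interval of -22.8% to 14.0%. The order of the group means was placebo, naive, calcitriol, and no neighbours in it differed beyond their spread.

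The second Rxra probe set, 92235_g_at, did not share that order. It had 204, 191 and 233 units on calcitriol replicates 6, 7 and 8, 187, 258 and 209 on placebo replicates 1, 5 and 10, and 308, 225 and 255 on naive replicates 2, 3 and 4. The highest array was naive replicate 2, and the 3 groups overlapped in every pair. Its differences were -0.05 ± 0.18 log2 for calcitriol against placebo, -0.27 ± 0.18 log2 for placebo against naive and -0.32 ± 0.18 log2 for calcitriol against naive (SE, limma adjusted p = 1, 0.729 and 0.552). Without naive replicate 2 the comparisons with naive shrank to -0.15 and -0.20 log2. Over the 9 arrays the probe sets of this one gene correlated at r = 0.25 (Pearson, a description of 9 arrays).

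Rxrb encodes RXR beta, also widely expressed. Its probe set 102398_at had 464, 394 and 480 units on calcitriol replicates 6, 7 and 8, against 398, 398 and 428 on placebo replicates 1, 5 and 10. The naive signals (replicates 2, 3 and 4) were 588, 427 and 506. Calcitriol arrays overlapped with both other groups, and placebo and naive arrays overlapped by less than 1 signal unit, with placebo replicate 10 at 427.8 and naive replicate 3 at 427.1. The difference was 0.12 ± 0.15 log2 for calcitriol against placebo (SE, interval -13.7% to 37.6%, limma adjusted p = 1). For placebo against naive it was -0.30 ± 0.15 log2 (SE, interval -35.8% to 2.40%, limma adjusted p = 0.601), and without naive replicate 2 it was -0.19 log2. Naive cord had the highest mean, calcitriol the next and placebo the lowest, with no neighbours differing beyond their spread.

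Rxrg encodes RXR gamma, the form with the most restricted expression. Its probe set 92237_at had 782, 657 and 746 units on calcitriol replicates 6, 7 and 8, against 631, 574 and 667 on placebo replicates 1, 5 and 10. Naive replicates 2, 3 and 4 had 612, 802 and 723. Calcitriol replicates 6 and 8 were above all placebo arrays, and replicate 7 was below placebo replicate 10. The difference of calcitriol against placebo was 0.22 ± 0.14 log2 (SE, interval -6.82% to 45.8%, limma adjusted p = 1), and that of placebo against naive was -0.18 ± 0.14 log2 (SE, interval -29.6% to 10.1%, limma adjusted p = 0.767). Calcitriol and naive means were 728 and 712 units, a difference of 0.04 ± 0.14 log2 (SE, interval -18.0% to 28.3%). In bulk tissue, fewer cells of a type and less RNA per cell cannot be told apart. The summed signal of 8 oligodendrocyte and myelin markers was 4519 to 6871 with calcitriol, 6348 to 6659 with placebo and 6430 to 7531 in naive cord, and that of 9 skeletal muscle markers, another tissue known to express Rxrg, was 971 to 1226, 942 to 1069 and 843 to 1169. Such sums follow their brightest members. Single oligodendrocyte and myelin markers ran from -1.64 to 1.86 log2 in placebo against naive, with 5 of 8 lower and 3 higher. In calcitriol against naive they ran from -1.83 to 1.63 log2, with 7 of 8 lower and 1 higher. There 1 of 8 passed the test, as lower, where 2.08% of all genes passed. The part of oligodendrocytes and muscle in the Rxrg values was not tested.

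The RARs bind retinoic acid. Rara, the most widely expressed RAR gene, had 47.3, 39.4 and 32.4 units on calcitriol replicates 6, 7 and 8 of probe set 92901_at, against 51.9, 14.6 and 40.3 on placebo replicates 1, 5 and 10. In naive cord, replicates 2, 3 and 4 had 50.1, 18.8 and 88.9. Placebo replicate 5 and naive replicate 3 were at the floor of 19.3 units, the calcitriol arrays lay inside the range of either other group, and the spread within naive cord exceeded any difference between groups. Calcitriol against placebo was 0.19 ± 0.57 log2 (SE, limma adjusted p = 1), with an interval of -52.6% to 176%, which includes a 2-fold change in either direction. Placebo against naive was -0.36 ± 0.57 log2 and calcitriol against naive -0.17 ± 0.57 log2 (SE, limma adjusted p = 0.901 and 0.95).

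Rarg, which encodes the RAR best known from skin and cartilage, had the largest differences among the receptors. The signals of probe set 102419_at were -26.8, -1.04 and 22.1 units on calcitriol replicates 6, 7 and 8, against 62.8, 61.7 and 61.3 on placebo replicates 1, 5 and 10. The naive signals (replicates 2, 3 and 4) were 21.3, 39.0 and -9.58. All placebo arrays were above all other arrays and within 2 signal units of each other, whereas calcitriol and naive arrays overlapped. Signals at or below the floor, on calcitriol replicates 6 and 7 and naive replicate 4, have no order among them. All placebo arrays stood above the other 6 for 0.764% of all probe sets tested. After the floor, calcitriol against placebo was -1.62 ± 0.33 log2 (SE, interval -2.35 to -0.88), a size that rests on the floor: it was -2.28 log2 with a floor of 9.64 units and -0.68 log2 with a floor of 38.6 units.

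This Rarg difference had the 4th smallest p of all 12177 probe sets in calcitriol against placebo (limma unadjusted p = 0.000684), yet an adjusted p of 1, as for every other probe set in that comparison, and it is reported as not past the test. The floor enters that p and rank too. With calcitriol replicates 6 and 7 held at the floor, the SD within calcitriol was 0.11 log2, although the signals ran from -26.8 to 22.1 units. Placebo against naive was 1.30 ± 0.33 log2 (SE, interval 0.56 to 2.03, limma adjusted p = 0.152), and 1.63 and 0.68 log2 with the lower and the higher floor. Calcitriol against naive was -0.32 ± 0.33 log2 (SE, interval -1.06 to 0.42, limma adjusted p = 0.77). On the scaled signals without a floor, the mean was -1.91 units with calcitriol, 61.9 units with placebo and 16.9 units in naive cord. The differences of -63.8 units for calcitriol against placebo and 45.0 units for placebo against naive each had a two-sided exact permutation p of 0.1, which is as low as groups of 3 and 3 can reach, and an adjusted p of 0.6 over the 18 receptor comparisons (Benjamini-Hochberg). Both comparisons share the placebo arrays. Rarg differed without overlap in both, which made 2 of 6 receptor probe sets lower without overlap in calcitriol against placebo (with Rxra 92234_at), where 9.99% of all probe sets did not overlap and 5.17% were lower in that way, and 1 of 6 higher in placebo against naive, where 14.5% of all probe sets did not overlap (7.39% higher, 7.13% lower). Calcitriol against naive had 0 of 6 without overlap, beside 16.1% of all (8.45% higher, 7.69% lower).

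**Figure D2:**
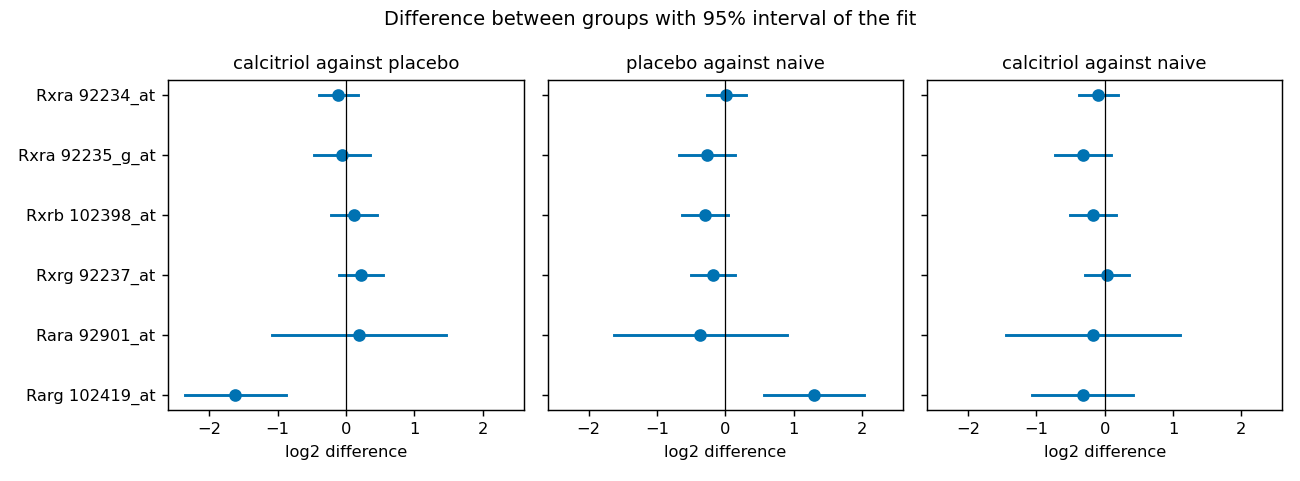
Log2 difference (horizontal axes) of each receptor probe set in calcitriol against placebo, placebo against naive and calcitriol against naive. Points are the fitted differences of 3 against 3 arrays and lines their 95% intervals; 16 of 18 lines cross 0, and those of Rarg in the panels that involve placebo do not, although neither passed adjustment over all probe sets.

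The receptors differed in how much could have been seen. The SD between arrays within groups was 0.10 log2 for Rxra 92234_at, 0.15 for Rxrg, 0.16 for Rxrb and 0.21 for Rxra 92235_g_at, against a median of 0.34 log2 over all probe sets. Their ranks in that distribution were the 2.05, 8.34, 10.8 and 20.9 percentiles. These ranks are over probe sets of any brightness. No comparison with probe sets of like signal was made, so they do not show a spread that is low for bright probe sets. Over all 9 arrays, Rxra 92234_at spanned only 0.31 log2, where the median probe set spanned 1.13 log2 and 0.936% spanned as little. Rara had an SD of 0.79 log2 (percentile 91.0) and Rarg of 0.32 log2 (percentile 46.4), with 3 of the 9 Rarg arrays held at the floor, which lowers an SD. The mean signals of Rara and Rarg over the arrays, 42.6 and 25.6 units, were at percentiles 15.3 and 6.24 of the tested probe sets, whereas those of the RXR probe sets were between percentiles 69.7 and 94.6. Signals of different probe sets depend on their probes and do not rank the genes by abundance.

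**Figure D3:**
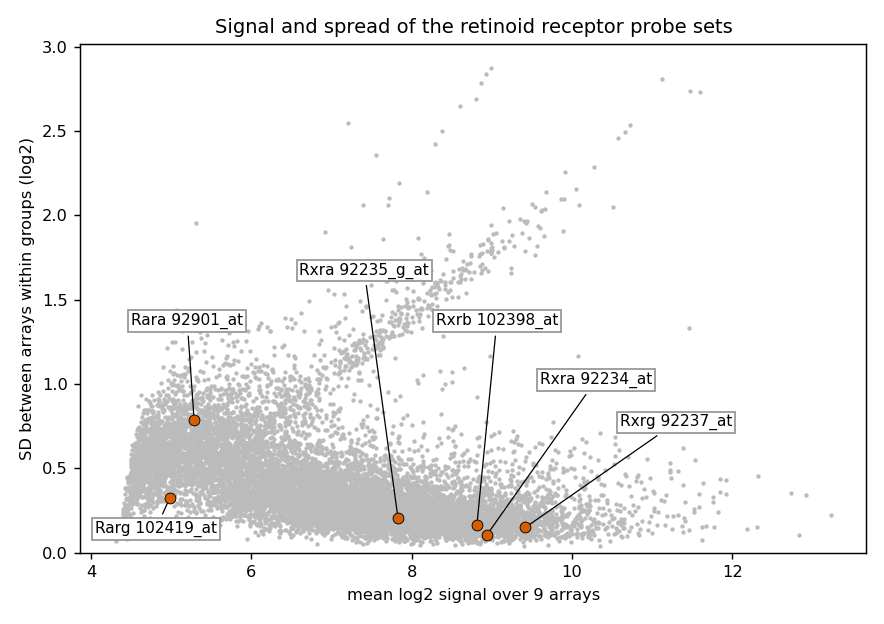
SD between arrays within groups (log2, vertical axis) against mean log2 signal over 9 arrays (horizontal axis) for 12177 tested probe sets (grey) and the 6 receptor probe sets (orange). The 4 RXR probe sets lie in the bright part, with SDs of 0.10 to 0.21, and Rara lies in the dim part, with an SD of 0.79.

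The receptors did not move together over the 9 arrays. Among the 15 pairs of probe sets, Pearson's r ran from -0.64, between Rxra 92234_at and Rara, to 0.75, between Rxra 92235_g_at and Rxrb, which share a high value on naive replicate 2. Of 8169 other genes, those most like Rxra 92234_at over the 9 arrays were Foxb2 (r = 0.98), Rgs10 (r = 0.92) and BC004004 (r = 0.91). Those most like Rxrb were Cenpv (r = 0.93), Repin1 (r = 0.91) and H2aj (r = 0.90). Rxrg was most like Oprd1, the delta opioid receptor (r = 0.95), Lmna, lamin A/C (r = 0.92), and Kcnj3, a potassium channel subunit (r = 0.91). Rara was most like Tom1l1, Ceacam10 and Aplf (r = 0.92, 0.92 and 0.91), and Rarg most like Slc26a1 (r = 0.92), Nnat (r = 0.90) and Dnph1 (r = 0.88). In the same order, Spearman's rank correlations were 0.78, 0.91 and 0.95 for Rara and 0.74, 0.90 and 0.86 for Rarg. Rara was at the floor on 2 arrays and Rarg on 3, and Ceacam10, Aplf and Slc26a1 also reached it. The arrays share their scaling and their groups, and these values describe 9 arrays, with no test.

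The dimer partners of RXR were likewise not past the test. Of 12 tested partner genes of 13 listed, 0 passed in calcitriol against placebo (limma, 0 also at an unadjusted p under 0.05), 0 in placebo against naive (0 unadjusted) and 0 in calcitriol against naive (1 unadjusted). Their median differences were -0.03, -0.08 and 0.01 log2, beside -0.00, -0.03 and -0.02 log2 over all 8170 genes. Of all genes, 0%, 0.979% and 2.08% passed in these comparisons. The unadjusted shares over all probe sets were 2.58%, 9.33% and 11.9%. Beside shares of all genes this low, 0 of 12 past the test does not set the partners apart. Vdr, the receptor of calcitriol itself, had 71.8, 33.5 and 35.2 units on calcitriol replicates 6, 7 and 8, against 27.7, 36.6 and 88.2 on placebo replicates 1, 5 and 10. Naive replicates 2, 3 and 4 had 7.43, 50.8 and 69.6, so all groups overlapped and naive replicate 2 was under the floor. Calcitriol against placebo was -0.03 ± 0.59 log2 for Vdr (SE, interval -1.35 to 1.28, limma adjusted p = 1).

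Thra, thyroid hormone receptor alpha, had the smallest p among the partners, in calcitriol against naive. It had 404, 501 and 349 units on calcitriol replicates 6, 7 and 8, against 626, 505 and 515 on placebo replicates 1, 5 and 10. In naive cord, replicates 2, 3 and 4 had 1007, 627 and 608. All calcitriol arrays were below all others, by a narrow gap to placebo, with differences of -0.40 ± 0.22 log2 against placebo (limma adjusted p = 1) and -0.81 ± 0.22 log2 against naive (SE, limma adjusted p = 0.124). The summed signal of 9 neuron markers was 3894 to 4472 with calcitriol, 4231 to 5719 with placebo and 5647 to 12686 in naive cord. Of the 9, 2 were higher and 7 lower in each comparison with naive cord. They ran from -1.20 to 1.86 log2 with placebo and from -1.38 to 1.83 log2 with calcitriol. In each, 0 of 9 passed the test, where 0.979% and 2.08% of all genes passed. The part of neurons in the Thra values was not tested. Thrb, thyroid hormone receptor beta, stood at -0.52 ± 0.26 log2 and Nr4a1, an orphan receptor induced by activity and stress, at -0.87 ± 0.75 log2, with a value of 0 on calcitriol replicate 7, in calcitriol against placebo (SE, limma adjusted p = 1 each). Calcitriol replicates 6 and 8 of Nr4a1 each had 197 units, above placebo replicates 1, 5 and 10 at 176, 140 and 186. Its negative difference therefore rests on calcitriol replicate 7. Nr1i3, the xenobiotic receptor CAR, stood at 0.24 ± 0.22 log2 in calcitriol against placebo (SE). Ppard, PPAR delta, stood at -0.56 ± 0.29 log2, Pparg, PPAR gamma, at 0.73 ± 0.52 log2 with 2 naive arrays at the floor, and Nr1h4, the bile acid receptor FXR, at 0.34 ± 0.19 log2 in placebo against naive (SE, limma adjusted p = 0.637, 0.748 and 0.656).

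Genes that make, carry and degrade retinoids showed no change past the test. Of 24 tested genes of 40 listed, 0 passed in calcitriol against placebo (limma, 1 at an unadjusted p under 0.05), 0 in placebo against naive (2 unadjusted) and 0 in calcitriol against naive (6 unadjusted). Over all probe sets the unadjusted shares in these comparisons were 2.58%, 9.33% and 11.9%, and 0%, 0.979% and 2.08% of all genes passed. The list medians were -0.13, -0.02 and -0.20 log2, beside -0.00, -0.03 and -0.02 log2 over all genes. Rlbp1, the carrier of retinaldehyde known from retinal glia, had 39.7, 31.0 and 29.2 units on calcitriol replicates 6, 7 and 8, against 61.8, 62.0 and 56.7 on placebo replicates 1, 5 and 10. The naive signals (replicates 2, 3 and 4) were 64.1, 47.1 and 76.5. All calcitriol arrays of Rlbp1 were below all others, at -0.87 ± 0.28 log2 against placebo (limma adjusted p = 1) and -0.90 ± 0.28 log2 against naive (SE, limma adjusted p = 0.197).

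Fabp5, which hands retinoic acid to PPAR delta and binds fatty acids, had 75.3, 81.3 and 74.0 units on calcitriol replicates 6, 7 and 8. Placebo replicates 1, 5 and 10 had 34.9, 64.2 and 79.6, and naive replicates 2, 3 and 4 had 39.3, 41.8 and 15.6. All calcitriol arrays were above all naive arrays, while placebo overlapped with both groups. Calcitriol against naive was 1.28 ± 0.40 log2 for Fabp5 (SE, limma adjusted p = 0.195). On naive replicate 4 Fabp5 was at the floor. The macrophage and neutrophil marker sums given above were also higher on every calcitriol array than on any naive array, and their part was not tested. Rdh5, a retinol dehydrogenase, stood at -0.39 ± 0.20 log2 in calcitriol against placebo and -0.56 ± 0.20 log2 in calcitriol against naive (SE, limma adjusted p = 1 and 0.285). Rbp2, a cellular retinol-binding protein, stood at 1.61 ± 0.50 log2 in placebo against naive (SE, limma adjusted p = 0.279) with 1 naive array at the floor, and at 1.31 ± 0.50 log2 in calcitriol against naive (SE, limma adjusted p = 0.32). Adh5, a broadly expressed alcohol dehydrogenase, was at -0.48 ± 0.18 log2 in placebo against naive (SE, limma adjusted p = 0.422). Aldh1a3, a retinaldehyde dehydrogenase, was at 1.06 ± 0.51 log2 and Stra6, the cell-surface retinol transporter, at 0.73 ± 0.39 log2 in calcitriol against placebo (SE, limma adjusted p = 1 each).

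Cyp26a1, whose DR5 is printed above, had 28.7, 25.2 and 49.0 units on calcitriol replicates 6, 7 and 8, against 33.3, 50.7 and 46.3 on placebo replicates 1, 5 and 10. Naive replicates 2, 3 and 4 had 48.1, 72.2 and 57.2. All groups were within a few times the floor, and calcitriol overlapped with both other groups. Calcitriol against placebo was -0.38 ± 0.35 log2, placebo against naive -0.45 ± 0.35 log2 and calcitriol against naive -0.83 ± 0.35 log2 for Cyp26a1 (SE, limma adjusted p = 1, 0.765 and 0.378). Of the 31 genes with a DR5 in a promoter window 2 were tested here, Cyp26a1 and the embryonic globin gene Hbb-y, and of 12 with a DR3, the spacing that a VDR-RXR dimer favours, 2 were tested, Itih3 and Mesp1. None of the 4 passed in any comparison. Of all genes, 0%, 0.979% and 2.08% passed in calcitriol against placebo, placebo against naive and calcitriol against naive. In calcitriol against placebo the 4 stood at -0.38, -0.13, -0.57 and 0.04 log2, in the order named.

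Coregulators, the proteins that receptors recruit to activate or silence genes, gave 0 of 26 tested (32 listed) past the test in each comparison (limma, 1, 0 and 0 at an unadjusted p under 0.05 in calcitriol against placebo, placebo against naive and calcitriol against naive). Their medians were -0.03, -0.06 and -0.04 log2. In the same order, 0%, 0.979% and 2.08% of all genes passed. The unadjusted shares over all probe sets were 2.58%, 9.33% and 11.9%. Beside shares of all genes this low, 0 of 26 past the test does not set these genes apart. In calcitriol against placebo Ddx5, an RNA helicase and coactivator, stood at -0.60 ± 0.26 log2, Hdac2, a histone deacetylase of corepressor complexes, at -0.60 ± 0.29 log2, Tbl1x, a corepressor subunit, at -0.47 ± 0.23 log2, and Nsd1, a histone methyltransferase, at 0.56 ± 0.33 log2 (SE). Kat2a, a histone acetyltransferase, stood at 0.51 ± 0.29 log2 in placebo against naive (SE), and Smarca4, the ATPase of a chromatin remodeller, at -0.46 ± 0.24 log2 in calcitriol against naive (SE).

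**Figure D4:**
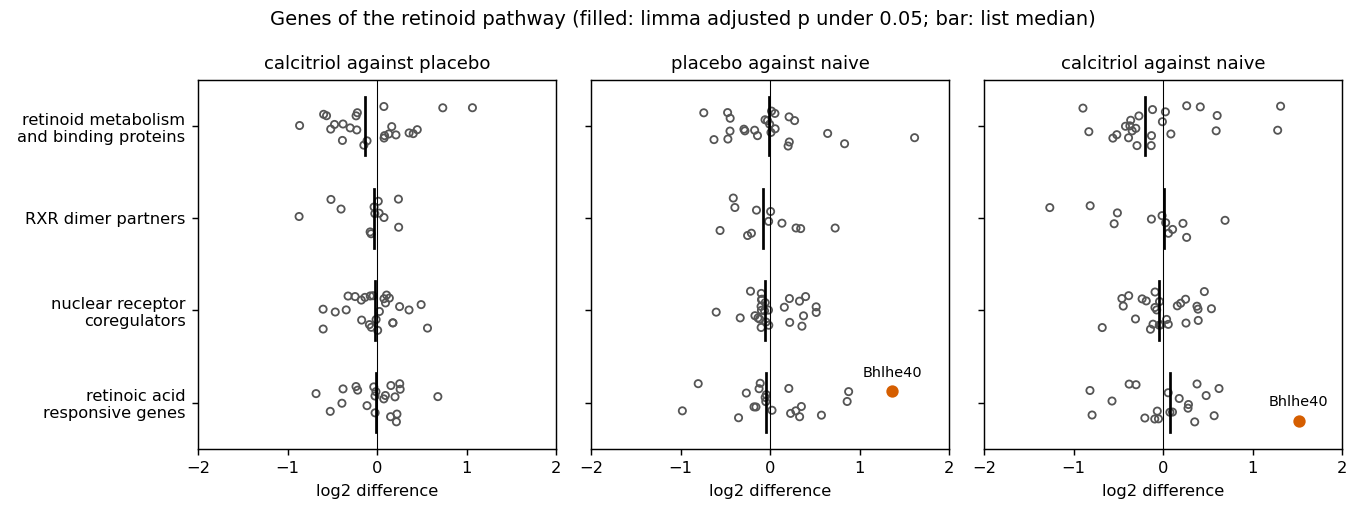
Log2 difference (horizontal axes) of each tested gene of 4 lists in the 3 comparisons; each point is a gene, jittered vertically, and bars are list medians. Bhlhe40 is the only filled point, past the test in placebo against naive and calcitriol against naive.

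Among retinoic acid responsive genes, 0 of 21 tested (26 listed) passed in calcitriol against placebo (limma, 0 unadjusted). There 0% of all genes passed, and 2.58% of all probe sets unadjusted. In placebo against naive and in calcitriol against naive 1 of 21 rose, the same gene in each, and 0 fell, where 0.979% and 2.08% of all genes passed. The list medians were -0.01, -0.04 and 0.08 log2. The gene was Bhlhe40, a circadian and immune transcription repressor first named for its induction by retinoic acid, which many other signals also induce. It had 209, 309 and 321 units on calcitriol replicates 6, 7 and 8, and 283, 263 and 203 on placebo replicates 1, 5 and 10. In naive cord, replicates 2, 3 and 4 had 82.0, 109 and 99.9. All EAE arrays were above all naive arrays, and the EAE groups overlapped with each other. Bhlhe40 rose 2.57-fold in placebo against naive (1.36 ± 0.22 log2, SE, limma adjusted p = 0.025) and 2.85-fold in calcitriol against naive (1.51 ± 0.22 log2, SE, limma adjusted p = 0.00889), and calcitriol against placebo was 0.15 log2 (limma adjusted p = 1). The first call was lost without placebo replicate 1 (limma adjusted p = 0.134), placebo replicate 5 (0.135), naive replicate 3 (0.0624) or naive replicate 4 (0.0657) and in a fit of placebo and naive arrays by themselves (0.0569), and the second without calcitriol replicate 8 (0.0586). The macrophage and neutrophil marker sums were higher on every EAE array than on any naive array. The sum of 10 T cell markers was lower on every EAE array, at 2260 to 2713 with calcitriol and 2564 to 2989 with placebo, against 3089 to 3274 in naive cord. None of the 10 passed the test in either comparison with naive cord. Their medians were -0.17 log2 with placebo and -0.23 log2 with calcitriol, with 2 of 10 higher in each. Such a sum follows its brightest members and does not count cells. The part of macrophages, neutrophils and T cells in the Bhlhe40 rise was not tested.

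Other genes of that list did not pass. Cdx1, a homeobox gene, stood at 0.68 ± 0.39 log2 in calcitriol against placebo and -0.98 ± 0.39 log2 in placebo against naive (SE, limma adjusted p = 1 and 0.45). Rarres2, which encodes the chemoattractant chemerin, stood at 0.57 ± 0.26 log2, Itga4, an integrin of leukocytes, at -0.57 ± 0.30 log2 and Ccr9, a gut-homing chemokine receptor, at -0.79 ± 0.42 log2 with 1 calcitriol array at the floor, all in calcitriol against naive (SE, limma adjusted p = 0.443, 0.518 and 0.516).

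**Figure D5:**
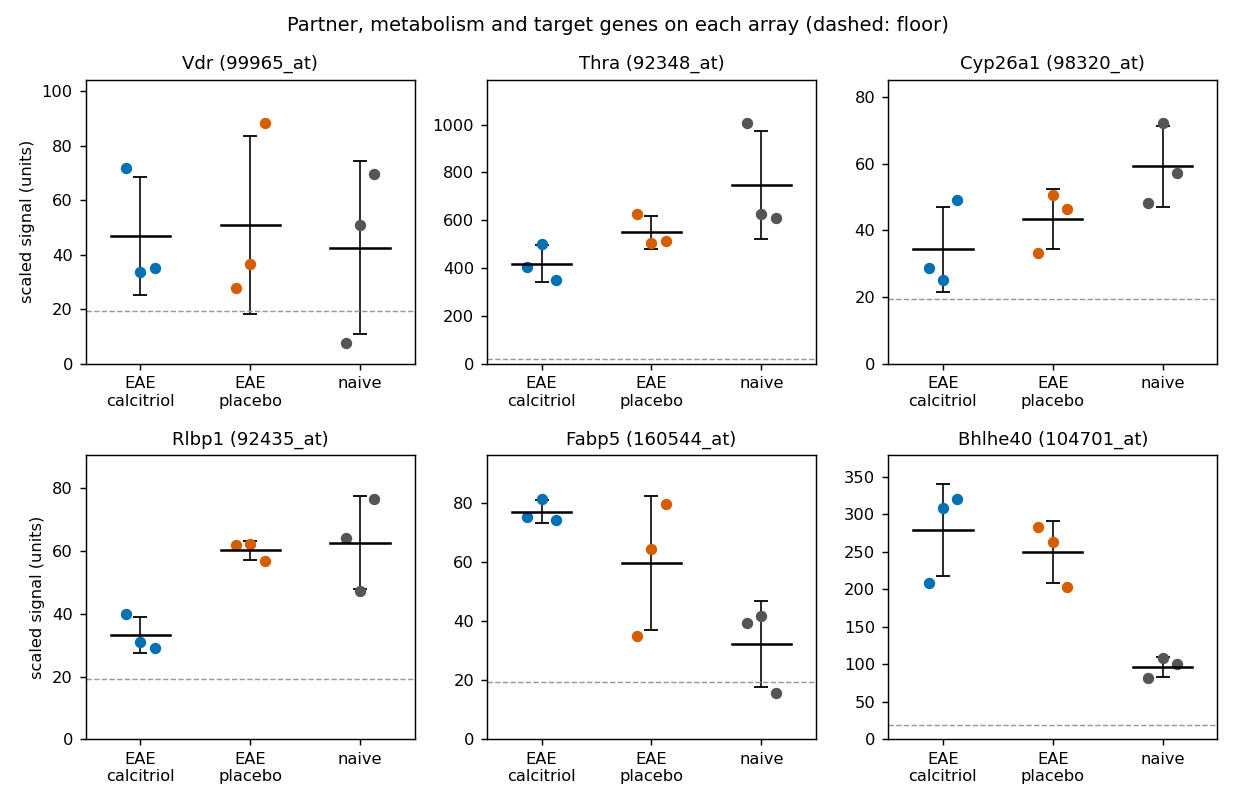
Scaled signal (vertical axes, linear, signal units) of Vdr, Thra, Cyp26a1, Rlbp1, Fabp5 and Bhlhe40 on each array, with EAE given calcitriol, EAE given placebo and naive cord from left to right. Points are arrays, bars the mean, whiskers 1 SD (n = 3), and the dashed line is the floor of 19.3 units; Bhlhe40 is higher on all 6 EAE arrays, at 203 to 321, than on the naive arrays, at 82.0 to 109.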

How the data were processed

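The authors deposited one table of linear intensity values, some below 0, with 12488 probe sets and 9 arrays of 1 colour. How they were summarised and scaled before deposit is not stated in the labels or the header. The 66 control probe sets were left out, each array was brought to the same trimmed mean of 192.8 (2% trimmed at each end), signals were raised to a floor of 10% of it (19.3 units) and taken to log2, and 12177 probe sets above the floor on at least 3 arrays were tested. Limma 3.58.1 on R 4.3.3 fitted the 3 groups in 1 model (6 residual degrees of freedom), with an intensity trend and Benjamini-Hochberg adjustment over all probe sets tested within each comparison. Fold changes are on the floored log2 scale and understate those of dim genes. With 3 arrays per group, their number sets the precision. The fit was tested on simulated data. Exact permutation tests used scipy 1.17.1, and matplotlib 3.10.9 drew the plots.

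Probe sets were named from the platform annotation, which gave 10855 of them 1 symbol, 396 more than 1 and 1237 no symbol; symbols are as given there. A gene of a list was represented by 1 probe set, a plain one first and then the brightest. Promoter windows are those of RefSeq on GRCm38.p6. The members and lists were chosen with earlier results of these data known. Receptor probe sets, Vdr, the 3 most alike genes of each receptor by Pearson's r, up to 4 genes of each list with the smallest unadjusted p in a comparison, and every listed gene past the test could be named. Cyp26a1, Hbb-y, Itih3 and Mesp1 were named for promoter matches sought after the values were seen. Alternatives were no rescaling, quantile normalization, other floors, other filters, exact zeros as missing, array weights, no intensity trend, pairwise fits and leaving out each array.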

Additional observations from a re-analysis of the deposited data

How the results depend on the processing

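No receptor probe set was called under any alternative tried, and the lowest limma adjusted p among them was 0.0716, for Rarg in placebo against naive with the higher floor. That floor of 38.6 units was above the Rarg signal on all calcitriol arrays and on naive replicates 2 and 4. Naive replicate 3 stood barely over it, at 39.0 units. Raising signals to that floor compresses the spread within these groups, on which the p rests. Of 339 recomputed receptor differences, 323 kept their direction and 16 reversed, none of them past the test on either side. Rxra 92234_at turned to 0.025 log2 in calcitriol against naive with values as deposited, and with array weights to -0.083 log2 in placebo against naive. Weights also turned Rara to 0.55 and 0.73 log2 in placebo and calcitriol against naive and Rxrg to -0.15 log2 in calcitriol against naive. The weight of naive replicate 3 was 4.38, against 0.259 and 0.414 for naive replicates 2 and 4. Weighted naive means therefore rest mostly on naive replicate 3. Rara turned to -0.056 log2 in calcitriol against placebo with the higher floor. Leaving out 1 array moved Rxra 92234_at between -0.074 and 0.080 log2 in placebo against naive, Rxra 92235_g_at between -0.16 and 0.077 log2 in calcitriol against placebo, and Rxrg between -0.068 and 0.13 log2 in calcitriol against naive. It moved Rara between -0.22 and 0.49 log2 in calcitriol against placebo, -0.96 and 0.14 log2 in placebo against naive and -0.77 and 0.34 log2 in calcitriol against naive. Rarg kept its direction, from -2.28 to -0.68 log2 in calcitriol against placebo and 0.68 to 1.63 log2 in placebo against naive, and the filter on the mean left it out. Without naive replicate 3, Rarg stood at -0.01 log2 in calcitriol against naive, and with weights at 0.80 log2 in placebo against naive and -0.82 log2 in calcitriol against naive.

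Counts over all probe sets depended on single arrays. Leaving out 1 array gave 0 to 1 calls in calcitriol against placebo (main count 0), 20 to 176 in placebo against naive (114), 75 to 392 in calcitriol against naive (244) and 53 to 237 in the F test (158). Placebo against naive had 20 calls when placebo replicate 5 was left out and 34 when replicate 1 was, 46 and 49 without naive replicates 3 and 4, 75 without calcitriol replicate 6 and 176 without naive replicate 2. Calcitriol against naive had 75 and 130 without calcitriol replicates 8 and 6, 115 without naive replicate 3 and 392 without naive replicate 2, and the single call in calcitriol against placebo came without calcitriol replicate 6 or 7. The F test had 53 without naive replicate 3, 69 without naive replicate 4, 71 and 93 without calcitriol replicates 8 and 6 and 84 without placebo replicate 1. Array weights gave 639 calls in placebo against naive, 1014 in calcitriol against naive and 777 in the F test. In that fit the naive group rested mostly on replicate 3. Pairwise fits gave 64 and 123 calls in the comparisons with naive, and exact zeros as missing 255 in the F test. The cause of these changes in the counts was not tested. No paired analysis was possible because the replicate numbers are not shared between groups.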
